A study of Bos taurus with 179 samples.

Results

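ATP5MC1, ATP5MC2, ATP5MC3, ATP5ME and ATP5MF are nuclear genes for subunits of the membrane sector of the mitochondrial ATP synthase. They were identified by the Ensembl gene IDs that the study's own gene lists pair with these symbols, which are ENSBTAG00000018339, ENSBTAG00000005735, ENSBTAG00000002944, ENSBTAG00000017496 and ENSBTAG00000002094 in the same order. Each stands on 1 line of the count table, and together they are 5 of its 21218 gene IDs. Polyadenylated mRNA of single denuded oocytes of Bos taurus was amplified and sequenced, and the deposited oocytes that the study kept after quality control, 179 less 14, were analysed in 8 diameter groups. The smallest was < 60 μm, 6 groups of 10 μm ran from 60–69 to 110–119 μm, and the largest was > 120 μm. All groups are oocytes of abattoir ovaries that differ by diameter, and the labels name no treatment. The paper's dissection medium, in which recovered oocytes were washed, contained heparin and cilostamide. The labels give no age, breed or animal, fully grown oocytes were aspirated from surface follicles whereas growing ones were freed by slicing the cortex, and source and size can therefore not be told apart at the largest diameters. Replicate 1 (97 oocytes) was read at 150 bp and replicate 2 (68 oocytes) at 75 bp, so that read length and library batch cannot be told apart either.

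The ATP synthase makes ATP from the proton gradient across the inner mitochondrial membrane. Protons pass through its membrane sector and turn a ring of identical c subunits, which drives the catalytic head on the matrix side. In mammals the c subunit is encoded by 3 paralogs, ATP5MC1, ATP5MC2 and ATP5MC3, whose precursors differ in the targeting peptide that is cleaved on import and give the same mature protein. ATP5ME and ATP5MF encode the small subunits e and f, which lie beside the ring, and subunit e is known for its part in the dimers that bend the cristae. The growing oocyte stores the mitochondria that the embryo inherits.

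The groups held 21, 25, 23, 24, 21, 18, 19 and 14 oocytes from the smallest to the largest, with totals of 277126 to 8038061 counts on genes per oocyte. For the tests, counts were added up within each size group and replicate, which gave 16 sums of 4467434 to 46545515 counts, and levels are CPM, the counts of a gene for every 1000000 normalised counts of the sum. A CPM is a share of the counts of the sum, so the amount of transcript per oocyte was not measured. Transcripts were captured by their poly(A) tails, and the paper cautions that selecting long tails may give an incomplete picture. Changes of tail length and of transcript level can therefore not be told apart here. One oocyte held 52.9% of the counts of the 100–109 μm sum of replicate 1. The > 120 μm sum of replicate 1, of 24297285 counts, includes an oocyte of 8038061 counts. In the < 60 μm sum of replicate 1, 1 of the 3 oocytes gave 2114 of the 3356 ATP5MC1 counts. The 5 oocyte markers, among them BMP15, BTG4 and CPEB1, reached 4700 to 10100 CPM in all sums together, with 4700 to 5030 at < 60 μm and 7920 to 10100 at > 120 μm. Summed levels stayed at or below 4.92 CPM for granulosa or theca markers, 1.53 for endothelium and 1.29 for immune cells, and were 10.3 to 41.8 for 5 stroma and smooth muscle markers, with CNN1 the highest at 23.1. The stroma and smooth muscle list had 10.5 to 12.3 CPM at < 60 μm and 10.3 to 29.7 at > 120 μm. Its members differed, since COL1A2 had 0.147 and 1.67 CPM at < 60 μm and 9.38 and 8.39 at > 120 μm in replicates 1 and 2, whereas ACTA2 and CNN1 were higher at > 120 μm in replicate 1 and lower in replicate 2. COL1A1 was at 0 in these 4 sums, and the list's part in the results below was not tested. Neither was the part of the oocyte marker level. The median depth was 2563427 counts per oocyte at < 60 μm and 1457610 at > 120 μm. The comparison of these groups was therefore repeated below with every oocyte thinned to 250000 counts.

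All 5 genes were read in nearly every oocyte. ATP5MC1, ATP5MC2, ATP5MC3 and ATP5MF had at least 1 count in every oocyte (100%, exact 95% confidence interval 97.8 to 100), with 25 to 2845, 1 to 493, 38 to 1584 and 4 to 1660 counts per oocyte. ATP5ME had 0 to 1529 counts and was read in 164 oocytes (99.4%, 96.7 to 100), and the 1 oocyte at 0 was 69.3 μm wide with a total of 319492 counts. When every oocyte was thinned to 250000 counts, ATP5MC2 was still detected in 160 oocytes and ATP5ME in 163, and the other members in all of them. These intervals treat the oocytes as independent and do not cover a shared library batch or animal. The reads carry no molecular identifiers, so counts are not independent molecules. How reads that align to several places were counted is not stated, so reads shared between the paralogs, or with copies of any member elsewhere in the genome, may be split, and transcript lengths were not used here, so the level of one gene is not set against that of another.

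The c-subunit paralogs took 3 different courses during growth. ATP5MC1 was upregulated and ATP5MC2 downregulated from the smallest to the largest oocytes, whereas no change of ATP5MC3 was detected. The first 2 also changed in opposite directions between 70–109 μm and ≥ 110 μm oocytes.

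ATP5MC1 had, in replicate 1, 246.7, 216.2, 233.9, 239.2, 295.6, 241.5, 345.2 and 313.0 CPM from the < 60 to the > 120 μm group. In replicate 2 the same groups had 181.4, 263.1, 207.4, 236.7, 362.7, 239.9, 433.5 and 552.6 CPM. The 2 largest groups were above all groups under 90 μm in both replicates, and the level of the 90–99 μm group was next to theirs while that of the 100–109 μm group lay among those of the small oocytes. In the order of mean log2 CPM, with the replicate means removed, the sums of > 120 and 110–119 μm overlapped, those of 110–119 and 90–99 μm did not, those of 90–99 and 100–109 μm did not, and the remaining 5 groups overlapped with their neighbours. In the 100–109 μm sum of replicate 1, the oocyte with 52.9% of the counts had the lowest level of the 11 (208.4 CPM, against 236.4 to 426.6 in the others). The median of the 11 oocytes was 336.6 CPM, above the medians of the 90–99 and the 110–119 μm group (272.6) in this replicate, so that the order of these 3 groups in replicate 1 differed between sums and single oocytes. From 80–99 to 100–109 μm the log2 fold change of ATP5MC1 was -0.21 with this oocyte and -0.02 without it. The level was 1.60 times higher in the highest than in the lowest group of replicate 1 and 3.05 times in replicate 2.

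ATP5MC2 had, in replicate 1, 71.5, 62.4, 45.2, 61.2, 42.3, 32.6, 23.4 and 23.1 CPM across the same 8 groups. In replicate 2 it had 29.1, 24.9, 24.8, 21.9, 18.8, 15.6, 15.6 and 12.4 CPM. The highest sum was the < 60 μm group and the lowest the > 120 μm group in both replicates, with a 3.10-fold and a 2.35-fold range. The level of every group was higher in replicate 1, by 0.58 to 1.48 on the log2 scale, so that the groups can be ordered only within a replicate. With the replicate means removed, the sums of 70–79 and 90–99 μm and those of 90–99 and 100–109 μm did not overlap, and the other 5 pairs of neighbours in the order did.

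ATP5MC3 had, in replicate 1, 142.7, 161.5, 132.1, 176.0, 171.9, 145.8, 143.4 and 144.2 CPM across the groups. In replicate 2 it had 197.0, 197.0, 182.3, 195.1, 193.2, 112.0, 172.5 and 222.7 CPM. Its range between groups was the narrowest of the 5 genes in replicate 1 (1.33-fold) and 1.99-fold in replicate 2, and all neighbours in the order of the groups overlapped. The lowest sum was the 100–109 μm group of replicate 2 (112.0 CPM), and the same group of replicate 1 had 145.8 CPM.

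**Figure D1:**
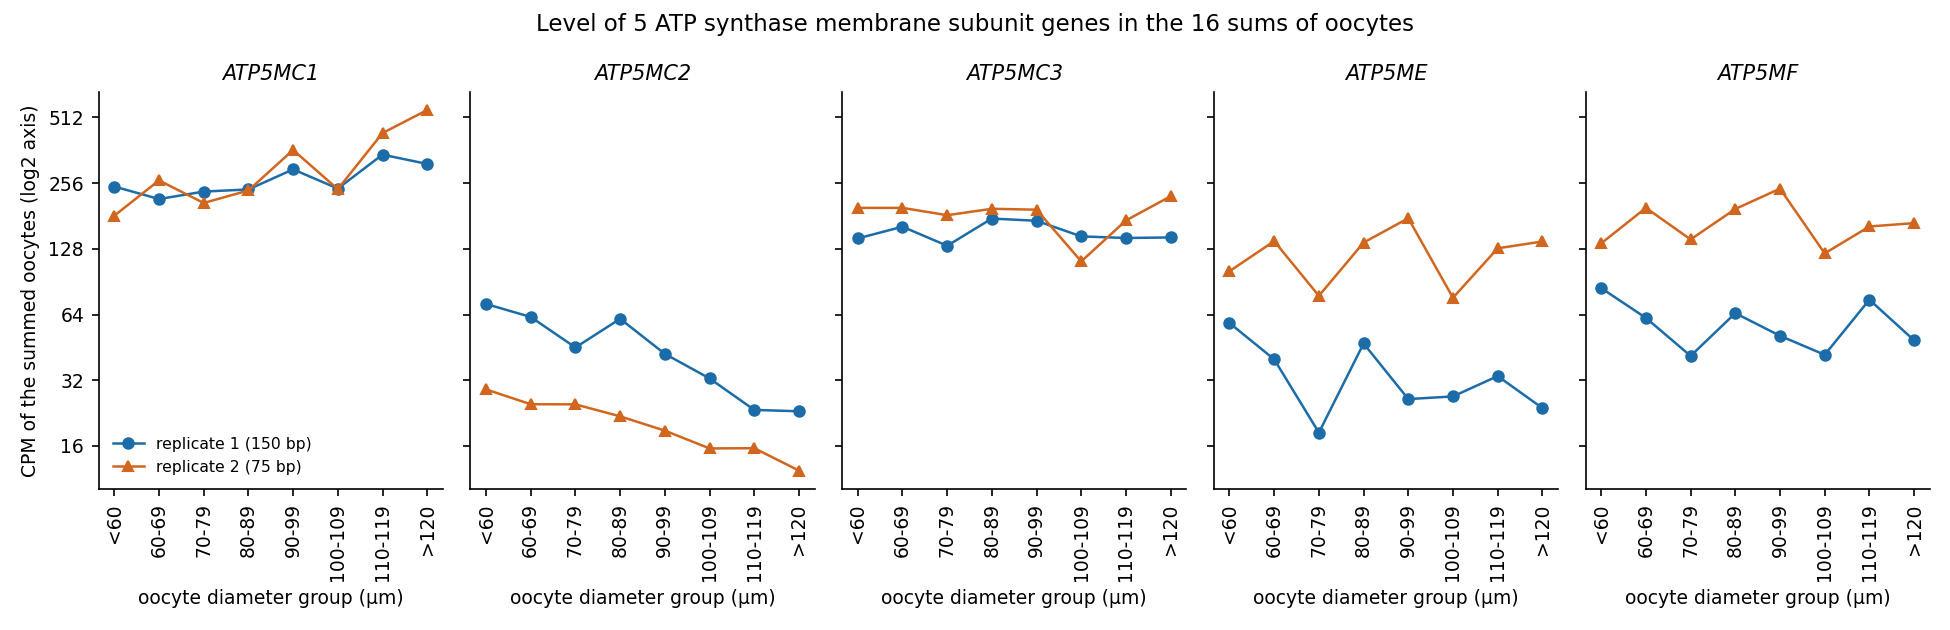
Level of each gene in CPM (log2 axis) in the 16 sums, by oocyte diameter group, with 1 line for each library replicate. ATP5MC1 reached 313.0 to 552.6 CPM in the 4 sums from 110 μm upwards, ATP5MC2 had its lowest levels, 12.4 and 23.1 CPM, in the largest oocytes, and ATP5ME and ATP5MF were higher in replicate 2 in all 8 groups.

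The overall question was whether a gene differed anywhere among the 8 size groups. By edgeR's quasi-likelihood F test with Benjamini-Hochberg adjustment over 14087 genes, 1 of the 5 members differed, against 14.9% of all genes tested. This was ATP5MC2 (adjusted p = 0.0152). The adjusted p was 0.0674 for ATP5MC1, 0.747 for ATP5MC3, 0.195 for ATP5ME and 0.403 for ATP5MF. The call of ATP5MC2 was lost without the 60–69 μm sum of replicate 1 (adjusted p = 0.0513), the > 120 μm sum of replicate 1 (0.0703), the > 120 μm sum of replicate 2 (0.0507) or the replicate term (1.0), within a range of 1.21e-08 to 1.0 over 24 alternatives. ATP5MC1 was called in 14 of its 24 alternatives, among them DESeq2 (adjusted p = 0.00168) and the fit without the deepest oocyte of the 100–109 μm group (0.0379), within a range of 2.41e-08 to 0.931.

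Between the ends of growth, < 60 against > 120 μm, 2 of the 5 members were DEGs, 1 in each direction, where 19.2% of all genes were called, 9.36% higher and 9.8% lower. ATP5MC1 rose by 0.99 ± 0.30 (log2 fold change ± SE, 2 sums per group, adjusted p = 0.0263 by edgeR), with a 95% interval of 0.36 to 1.61. It was higher at > 120 μm in both replicates. ATP5MC2 fell by 1.45 ± 0.31 on the log2 scale (adjusted p = 0.00369 by edgeR, interval -2.10 to -0.79), also in both replicates. ATP5MC3 had a log2 fold change of 0.10 ± 0.27 (adjusted p = 0.830 by edgeR, interval -0.47 to 0.67), and was -0.008 to 0.33 with 1 sum left out. The point estimates of both paralogs lay outside its interval in the main fit, but the interval of ATP5MC1 overlapped it. Whether ATP5MC1 and ATP5MC3 differed in this comparison was not tested. The median of all genes in this comparison was -0.12, between -0.16 and -0.02 under the alternatives that kept every sum.

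The call of ATP5MC1 between these ends was lost when either of these sums of replicate 2 was left out. Without the < 60 μm sum of replicate 2 its log2 fold change was 0.77 (adjusted p = 0.156 by edgeR), without the > 120 μm sum of replicate 2, which holds 4 oocytes, 0.69 (0.216), and with all 179 oocytes 0.63 (0.207). With all 179 oocytes ATP5ME was called in its place (-1.49, adjusted p = 0.0492 by edgeR), beside ATP5MC2 (-2.14, adjusted p = 0.00174). The call of ATP5MC2 was lost without the > 120 μm sum of replicate 1 (-1.31, adjusted p = 0.0686 by edgeR). Without the replicate term both calls were lost at nearly the same log2 fold changes, 1.02 (adjusted p = 0.248) and -1.50 (0.375). With every oocyte thinned to 250000 counts both genes were still called. The log2 fold change was then 1.34 for ATP5MC1 (adjusted p = 0.00044 by edgeR) and -1.1 for ATP5MC2 (0.0196). Over 24 alternatives the adjusted p ranged from 3.36e-06 to 0.248 for ATP5MC1 and from 6.17e-05 to 0.375 for ATP5MC2, and the direction of neither turned.

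The paper describes the expression of oxidative phosphorylation genes as highest at < 70 and at 110–119 μm, so 70–109 μm oocytes were set against both sides. The upper side here also holds the > 120 μm group, which the paper does not name there. From 70–109 to ≥ 110 μm, ATP5MC1 rose by 0.68 ± 0.18 on the log2 scale (adjusted p = 0.0142 by edgeR, interval 0.31 to 1.05) and ATP5MC2 fell by 0.73 ± 0.19 (adjusted p = 0.0158, interval -1.13 to -0.33). These were 2 of 5 members, against 14.8% of all genes, 7.08% called higher and 7.68% lower. The log2 fold changes of ATP5MC3, ATP5ME and ATP5MF were 0.06 ± 0.17, 0.14 ± 0.22 and 0.13 ± 0.19, with adjusted p of 0.863, 0.714 and 0.694 by edgeR. With 1 sum left out they ranged from 0.01 to 0.19, from -0.003 to 0.33 and from -0.0004 to 0.31. Without the > 120 μm sum of replicate 2 neither gene was called (ATP5MC1 0.53, adjusted p = 0.106, and ATP5MC2 -0.71, 0.0696), and the call of ATP5MC2 was also lost without the 110–119 μm sum of replicate 1 (-0.59, 0.118), the > 120 μm sum of replicate 1 (-0.66, 0.0963) and with all 179 oocytes (-0.71, 0.0554). Without the replicate term both were lost (0.69, adjusted p = 0.266, and -0.79, 0.582), within ranges of 3.70e-06 to 0.266 and 6.79e-05 to 0.582 over 24 alternatives.

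From < 70 to 70–109 μm, edgeR called 0 of the 5 members, against 9.5% of all genes, 5.13% higher and 4.37% lower. The unadjusted p was under 0.05 for 2 of them, against 25.8% of all genes. These were ATP5MC2 with a log2 fold change of -0.51 ± 0.18 (adjusted p = 0.0764 by edgeR) and ATP5ME with -0.47 ± 0.22 (0.175). DESeq2 called 1, ATP5MC2 (-0.50, adjusted p = 0.0384), against 14.9% of all genes by that tool. With 1 sum left out the log2 fold change of ATP5ME ranged from -0.69 to -0.11. The first of these values was without the < 60 μm sum of replicate 2, where edgeR called the gene. The adjusted p ranged from 0.00057 to 0.786 for ATP5MC2 and from 0.0352 to 0.978 for ATP5ME over the alternatives.

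No member was called between successive size groups. In the order < 60 against 60–69, < 70 against 70–79, 70–79 against 80–99, 80–89 against 90–99, 80–99 against 100–109, 100–109 against 110–119 and 110–119 against > 120 μm, edgeR called 0 of 5 each time, against 0.0142%, 0.135%, 0%, 0%, 0.497%, 3.88% and 0.0071% of all genes. The unadjusted p of edgeR was under 0.05 for 0, 1, 1, 0, 2, 1 and 0 members, against 3.21%, 7.55%, 5.54%, 3.33%, 16.1%, 26% and 11.1% of all genes. DESeq2 also called 0 members, against 0.0562%, 0.639%, 0.131%, 0%, 4.46%, 16.5% and 0.111% of the genes to which it gave an adjusted p, but at the last step ATP5MC2, ATP5ME and ATP5MF had none. Of the 2 steps with the most calls, edgeR called 0.433% higher and 0.0639% lower from 80–99 to 100–109 μm, and 1.89% higher and 1.99% lower from 100–109 to 110–119 μm. The largest of these steps belonged to ATP5ME, with -1.04 ± 0.33 from < 70 to 70–79 μm (adjusted p = 0.370 by edgeR) and 1.00 ± 0.32 from 70–79 to 80–99 μm (0.744). Without the < 60 μm sum of replicate 2 the first of these was called (-1.27, adjusted p = 0.0331 by edgeR), within a range of 0.0103 to 1.0 over 24 alternatives. At the step from 100–109 to 110–119 μm, where most genes of any step were called, ATP5MC1 had 0.69 ± 0.29 (adjusted p = 0.149) and ATP5MF 0.64 ± 0.31 (0.203). With 250000 counts per oocyte the value of ATP5MC1 was 0.33 (adjusted p = 0.417 by edgeR), with single oocytes as units 0.39 (0.147), and without the deepest oocyte of the 100–109 μm group 0.54 (0.273). That of ATP5MF was 0.35 (0.733) without the 110–119 μm sum of replicate 1 and 0.94 (0.101) without that of replicate 2.

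**Figure D2:**
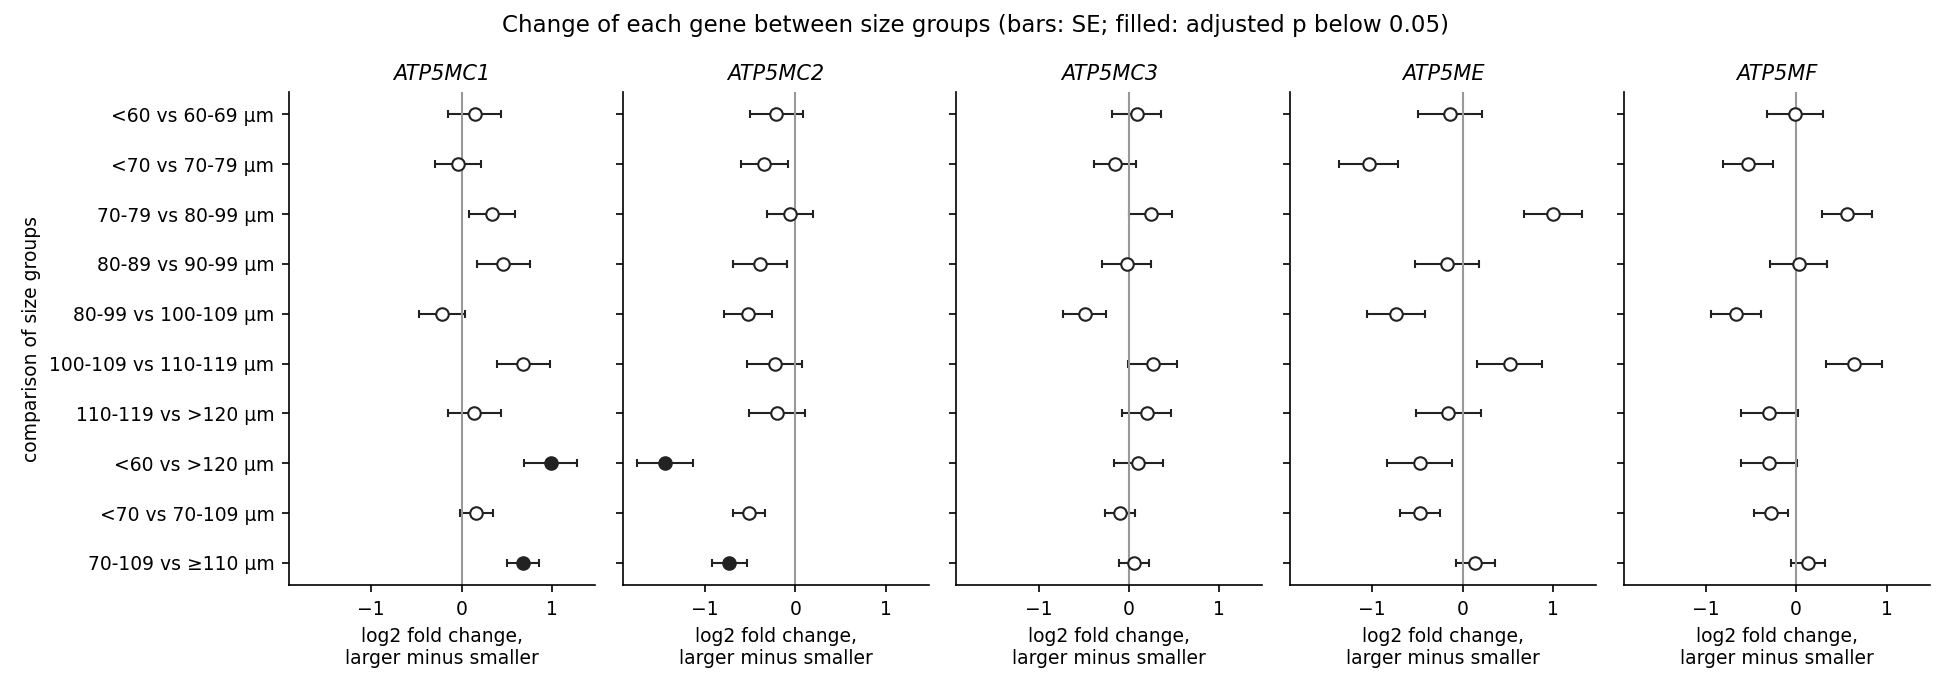
Log2 fold change of each gene, larger minus smaller oocytes, in 10 comparisons of size groups, with the SE as bars and filled points where the adjusted p of edgeR was below 0.05. The 4 filled points are ATP5MC1 (0.99 and 0.68) and ATP5MC2 (-1.45 and -0.73) in the < 60 against > 120 μm and the 70–109 against ≥ 110 μm comparisons.

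The paralogs were then compared within each sum, as the log2 ratio of their counts, in which depth cancels. A ratio of 2 genes is shifted by their lengths, but its change between groups is not. The ratio of ATP5MC1 to ATP5MC2 counts rose from 3.45 to 13.6 in replicate 1 and from 6.24 to 44.8 in replicate 2 between < 60 and > 120 μm. The ratio of ATP5MC1 to ATP5MC3 went from 1.73 to 2.17 in replicate 1 and from 0.921 to 2.48 in replicate 2. The ratio of ATP5MC2 to ATP5MC3 went from 0.501 to 0.160 in replicate 1 and from 0.148 to 0.0554 in replicate 2. The share of ATP5MC2 against either paralog was thus lower in the largest than in the smallest oocytes of each replicate.

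All 3 ratios were related to diameter over the 16 sums, with the mean of each replicate removed. For ATP5MC1 to ATP5MC2, Pearson's r was 0.939 (two-sided permutation p = 1e-05, which is as small as 100000 permutations of the diameters within replicate allow, adjusted p = 3e-05 over the 3 ratios) and Spearman's rho 0.952 (permutation p = 1e-05, adjusted 3e-05). The slope was 0.33 log2 units per 10 μm. The r was 0.923 without the 2 sums farthest from the median diameter, 0.930 within replicate 1 (exact permutation p = 0.00139, 8 sums) and 0.948 within replicate 2 (exact permutation p = 0.000446). The relation therefore held within each library batch. For ATP5MC2 to ATP5MC3 the r was -0.894 (permutation p = 2e-05, adjusted 3e-05) and the rho -0.857 (permutation p = 0.00017, adjusted 0.000255), with a slope of -0.19 per 10 μm. It was -0.826 without the 2 farthest sums, -0.981 within replicate 1 (exact permutation p = 7.44e-05) and -0.804 within replicate 2 (exact permutation p = 0.0106).

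For ATP5MC1 to ATP5MC3 the r was 0.800 (permutation p = 0.00021, adjusted 0.00021) and the rho 0.702 (permutation p = 0.00537, adjusted 0.00537), with a slope of 0.14 per 10 μm and an r of 0.852 without the 2 farthest sums. It was 0.932 within replicate 2 (exact permutation p = 0.00126) but 0.648 within replicate 1, where it did not pass the test (exact permutation p = 0.0825). In replicate 1 the < 60 μm sum, which holds 3 oocytes, had a log2 ratio of 0.79, above those of 60–69 μm (0.42), 80–89 μm (0.44), 90–99 μm (0.78) and 100–109 μm (0.73). The 3 ratios are not independent, since on the log2 scale that of ATP5MC1 to ATP5MC3 is the sum of the other two.

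**Figure D3:**
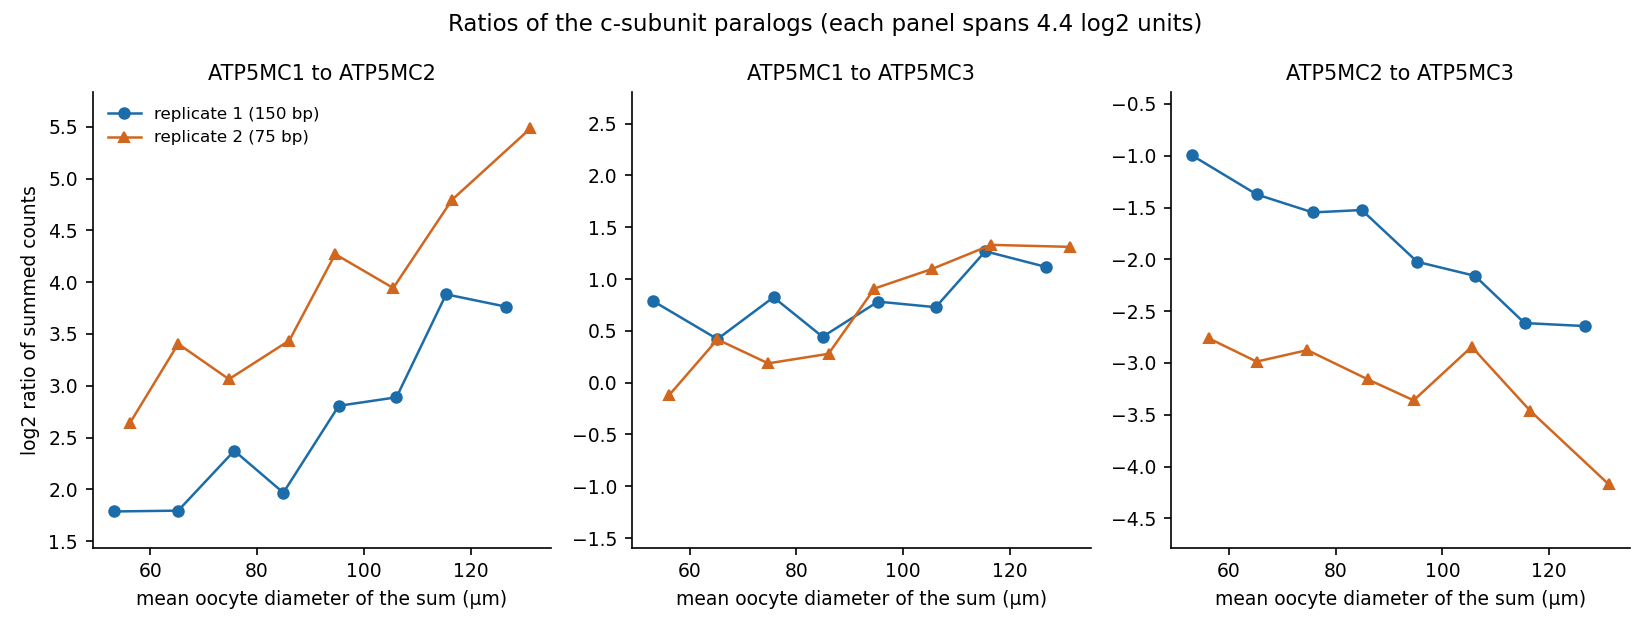
Log2 ratio of the summed counts of 2 c-subunit paralogs against the mean oocyte diameter of the sum in μm, with 1 line for each library replicate of 8 sums. The ratio of ATP5MC1 to ATP5MC2 rose with diameter in both replicates (r of 0.930 and 0.948), that of ATP5MC2 to ATP5MC3 fell in both (-0.981 and -0.804), and that of ATP5MC1 to ATP5MC3 passed the test in replicate 2 only. Whether its trend differed between the replicates was not tested.

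The smallest and largest groups were also compared in single oocytes. In replicate 1 the median of ATP5MC1 was 172.2 CPM over the 3 oocytes of < 60 μm (165.9 to 353.5) and 473.2 over the 10 oocytes of > 120 μm (180.9 to 762.3), and these groups overlapped. The sums of the same groups in replicate 1, 246.7 and 313.0 CPM, showed a smaller rise than these medians. In replicate 2 the medians were 180.9 (18 oocytes, 87.89 to 355.0) and 502.1 (4 oocytes, 383.9 to 700.6), without overlap. The median of ATP5MC2 was 73.25 CPM (67.3 to 75.35) against 30.69 (15.25 to 45.05) in replicate 1, without overlap, and 28.91 (3.935 to 77.06) against 12.88 (2.86 to 24.4) in replicate 2, with overlap. The median of ATP5MC3 was 140.3 CPM (129.0 to 160.6) against 182.6 (114.7 to 246.3) in replicate 1 and 188.6 (127.5 to 377.1) against 230.4 (135.8 to 311.3) in replicate 2, with overlap in both.

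Over the oocytes of a replicate, log2(CPM + 1) had an r with diameter of 0.486 and 0.508 for ATP5MC1 (97 and 68 oocytes), -0.553 and -0.455 for ATP5MC2, and 0.195 and -0.294 for ATP5MC3. The sign was thus the same in both replicates for ATP5MC1 and ATP5MC2 and not for ATP5MC3. For ATP5ME it was 0.0542 and -0.0251 and for ATP5MF 0.141 and -0.0514. Oocytes of 1 replicate share its library batch and may share an animal, so these correlations are given as descriptions. The lowest ATP5MC2 levels, 0.802, 0.939 and 2.04 CPM, were single oocytes of replicate 2 in the 90–99, 100–109 and 110–119 μm groups, each the lowest of 7 to 9.

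Counted oocyte by oocyte, those with more counts of ATP5MC1 than of ATP5MC3 were, in replicate 2, 7 of 18, 4 of 8, 5 of 7, 5 of 8, 8 of 9, 7 of 7, 7 of 7 and 4 of 4 from the smallest to the largest group. In replicate 1 they were 3 of 3, 13 of 17, 14 of 16, 11 of 16, 12 of 12, 11 of 11, 11 of 12 and 10 of 10. The point of equal counts has no meaning per transcript, because the lengths differ in an unknown way, but from 90 μm upwards 1 oocyte in each replicate was left on the other side of it.

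**Figure D4:**
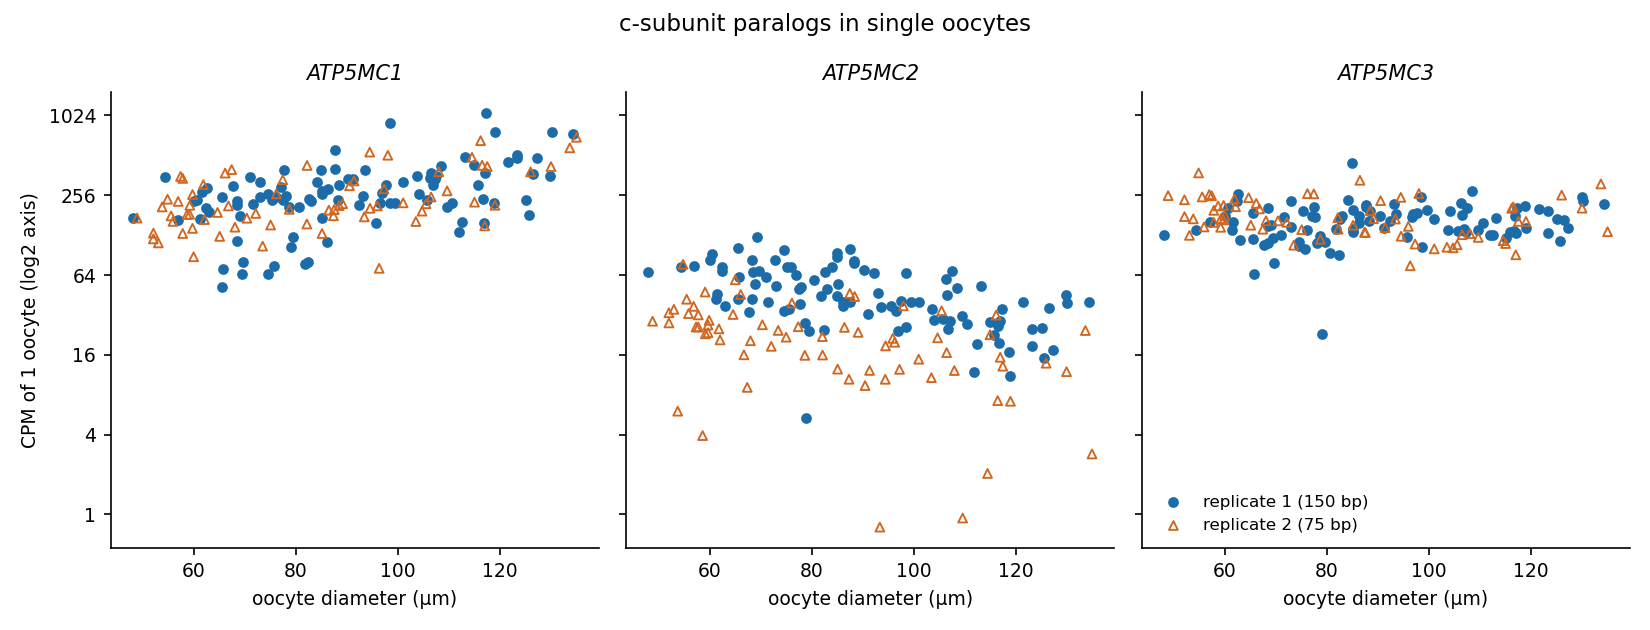
Level of the c-subunit paralogs in CPM (log2 axis) against oocyte diameter in μm, with 1 point for each of the 97 oocytes of replicate 1 and 68 of replicate 2, the replicates marked by shape and colour. ATP5MC1 lay higher and ATP5MC2 lower in the larger oocytes of both replicates (r of 0.486 and 0.508, and of -0.553 and -0.455), and ATP5MC3 had r of 0.195 and -0.294.

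ATP5ME and ATP5MF, subunits e and f, showed no change called by edgeR in the 10 comparisons, but ATP5ME was called in some of them with single oocytes as units, with all 179 oocytes or without the < 60 μm sum of replicate 2. ATP5ME had, in replicate 1, 58.50, 39.89, 18.42, 47.15, 26.24, 26.98, 33.44 and 23.86 CPM from the < 60 to the > 120 μm group, and in replicate 2 101.0, 138.7, 77.92, 136.6, 176.6, 76.33, 128.6 and 138.2 CPM. ATP5MF had 84.52, 61.74, 41.35, 64.91, 51.13, 41.85, 74.81 and 48.73 CPM in replicate 1 and 135.5, 197.0, 141.2, 194.7, 241.2, 121.9, 161.9 and 167.7 CPM in replicate 2. Both genes had their lowest sum at 70–79 μm in replicate 1 and at 100–109 μm in replicate 2, and both were higher in replicate 2 in 8 of 8 groups, by 0.79 to 2.75 on the log2 scale for ATP5ME and by 0.68 to 2.24 for ATP5MF. Between < 60 and > 120 μm the log2 fold change was -0.48 ± 0.36 for ATP5ME (adjusted p = 0.384 by edgeR, interval -1.24 to 0.29) and -0.30 ± 0.31 for ATP5MF (adjusted p = 0.539, interval -0.96 to 0.36). The values of both genes depended on the alternative. ATP5MF ranged from -0.80 with all 179 oocytes (adjusted p = 0.156 by edgeR) to 0.28 without the < 60 μm sum of replicate 1 (0.706), and was 0.23 (0.566) with single oocytes as units and -0.64 (0.219) without the < 60 μm sum of replicate 2. ATP5ME was called with all 179 oocytes (-1.49, adjusted p = 0.0492 by edgeR), and was of the other sign with 250000 counts per oocyte (0.19, adjusted p = 0.729), without the replicate term (0.02, 0.999) and without the < 60 μm sum of replicate 1 (0.24, 0.774). The value of ATP5ME was -0.92 (0.0959) without the < 60 μm sum of replicate 2, -0.09 (0.934) without the > 120 μm sum of replicate 1 and -0.75 (0.301) without that of replicate 2.

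The members differed in how much single oocytes of 1 group and replicate varied. The median SD of log2(CPM + 1) over the 16 sets of oocytes was 0.406 for ATP5MC3, 0.629 for ATP5MC1, 0.677 for ATP5MC2, 0.871 for ATP5MF and 0.874 for ATP5ME. With the group and replicate means removed, ATP5ME and ATP5MF moved together over oocytes (r = 0.856, with 0.822 and 0.922 within the replicates). ATP5MC1 moved with both, with an r of 0.702 to ATP5ME and 0.776 to ATP5MF, and less with its paralog ATP5MC3 (0.490). The r of ATP5MC2 differed in sign between the replicates for ATP5MC1 (0.293 in replicate 1 and -0.0574 in replicate 2), ATP5ME (0.315 and -0.09) and ATP5MF (0.283 and -0.104), and was 0.589 and 0.177 to ATP5MC3. These values are descriptions over oocytes that share libraries and differ in depth.

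Of the ATP synthase genes, 14 more were paired with an ID, 8 of the catalytic head and stalks, 3 of the membrane sector, the inhibitor ATP5IF1 and the assembly factors ATPAF1 and ATPAF2, and ATP5MG, ATP5MK and ATP5PF were not paired. Over the 8 size groups edgeR called 0 of the 14, against 14.9% of all genes, and DESeq2 6, against 29.1%. The unadjusted p of edgeR was under 0.05 for 6 of the 14, against 31% of all genes. In the 6 steps < 60 against 60–69, < 70 against 70–79, 70–79 against 80–99, 80–89 against 90–99, 80–99 against 100–109 and 110–119 against > 120 μm edgeR called 0 of 14, against 0% to 0.497% of all genes, with an unadjusted p under 0.05 for 0, 4, 1, 0, 6 and 2 of the 14, against 3.21%, 7.55%, 5.54%, 3.33%, 16.1% and 11.1% of all genes. DESeq2 also called 0, against 0% to 4.46%, and 4 of the 14 had no adjusted p from it at the last of these steps.

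Between < 60 and > 120 μm 0 of these 14 rose and 2 fell, ATP6 (-1.40 ± 0.44, adjusted p = 0.0324 by edgeR) and ATP8 (-1.46 ± 0.45, adjusted p = 0.0301), which are encoded by mitochondrial DNA. The study's quality control set a limit on the share of reads on mitochondrial genes, so the oocytes kept were chosen partly by such reads. Of all genes 9.36% were called higher and 9.8% lower, and DESeq2 called 3 of the 14, against 24.3% of all genes by that tool. The median log2 fold change was -0.37 over the 14, -0.30 over the 5 members and -0.12 over all genes. The adjusted p over 24 alternatives ranged from 7.25e-05 to 0.265 for ATP6 and from 0.00169 to 0.371 for ATP8. Both calls were lost without the replicate term and without the < 60 μm sum of replicate 1 (-1.10, adjusted p = 0.196, and -1.01, 0.252), the > 120 μm sum of replicate 1 (-1.16, 0.242, and -1.28, 0.214), the > 120 μm sum of replicate 2 (-1.51, 0.105, and -1.49, 0.120), the 60–69 μm sum of replicate 1 (-1.33, 0.0528, and -1.38, 0.0522) or replicate 2 (-1.30, 0.0607, and -1.35, 0.0588) and the 90–99 μm sum of replicate 2 (-1.29, 0.0584, and -1.35, 0.0590). That of ATP6 was also lost without the 80–89 μm sum of replicate 2 (-1.29, 0.0568), and that of ATP8 without the 90–99 μm sum of replicate 1 (-1.39, 0.0514).

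From 70–109 to ≥ 110 μm, where ATP5MC1 rose, 1 of the 14 was called, ATP5F1B of the catalytic head, which fell by 0.62 ± 0.20 (adjusted p = 0.0390 by edgeR), against 7.68% of all genes called lower. DESeq2 called 2 of the 14, against 19.8% of all genes in either direction. ATP5F1B was called in 10 of 24 alternatives, and over all 24 its log2 fold change ranged from -0.83 to -0.39 and its adjusted p from 5.16e-05 to 0.832. The call was lost without the replicate term (-0.55, adjusted p = 0.832), with RLE scaling (-0.58, 0.0579), without the deepest oocyte of the 100–109 μm group (-0.48, 0.0847) and without the > 120 μm sum of replicate 2 (-0.39, 0.337). It was also lost without the 100–109 μm sum of replicate 1, the 70–79 μm sum of replicate 2 or any 1 sum of the 60–69, 80–89, 90–99 and 110–119 μm groups, with adjusted p of 0.0540 to 0.142 by edgeR. From < 70 to 70–109 μm 1 of the 14 fell, ATP5F1E of the central stalk (-0.88 ± 0.24, adjusted p = 0.0289 by edgeR), against 4.37% of all genes called lower. DESeq2 called 3 of the 14, against 14.9% in either direction. The call of ATP5F1E was lost without the replicate term (-0.71, adjusted p = 0.675) and without the < 60 μm sum of replicate 1 (-0.53, 0.277), within a range of 0.00023 to 0.675 over 24 alternatives. Leaving out either sum of the 60–69 and 80–89 μm groups, or that of replicate 1 at 70–79, 90–99 or 100–109 μm, also lost the call, with adjusted p of 0.0552 to 0.130 by edgeR.

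From 100–109 to 110–119 μm 2 of the 14 rose, ATP5PD (1.25 ± 0.35, adjusted p = 0.0490 by edgeR) and ATP5PO (1.19 ± 0.32, adjusted p = 0.0460), both of the peripheral stalk, against 1.89% of all genes called higher. DESeq2 called 6 of the 14, against 16.5% of all genes in either direction. The medians were 0.55 over the 14, 0.52 over the members and -0.06 over all genes. Both calls were lost without the 110–119 μm sum of replicate 1 (0.50, adjusted p = 0.578, and 0.82, 0.465), the 100–109 μm sum of replicate 1 (1.10, 0.457, and 0.97, 0.457), with all 179 oocytes (1.21, 0.140, and 1.11, 0.148), without the replicate term (0.99, 0.836, and 1.01, 0.836) and without either sum of the 60–69, 80–89 or 90–99 μm groups, where the highest adjusted p was 0.0664 and 0.0653. None of these 6 genes changed direction in its 24 alternatives.

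Among 2936 tested genes with a symbol, those most like each member over the 16 sums, by Pearson's r of log2 CPM with the replicate means removed, were listed as a description. ATP5MC1 was most like ARMC2 (0.912), CCDC50 (0.897) and ARID5B (0.889), and ATP5MC2 most like CCDC42 (0.939), AP3B1 (0.938) and ASAP2 (0.937). ATP5MC3 had no close match, with ALDH8A1 (0.715), ARMC12 (0.683) and C25H16orf89 (0.674) the nearest. ATP5ME and ATP5MF were each the gene most like the other (0.889). They were followed by COX5B (0.864) and CENATAC (0.860) for ATP5ME, and by ATP5IF1 (0.884) and ATP5F1E (0.880) for ATP5MF. The symbols cover part of the genes only, so closer matches without a symbol are not listed.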

How the data were processed

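Single bovine oocytes of known diameter were sequenced in 2 library replicates. Per the study's methods, the authors trimmed reads with Trim Galore (version 0.6.6 per the processing notes), aligned them with HISAT2 to ARS-UCD1.2 and counted them per gene in SeqMonk, and they deposited raw counts, not normalized, 1 column per oocyte. Strand and multi-mapped reads are not stated. Columns were matched to samples by title, and 0 columns were left over. Lines that share a gene ID were added up. Members, lists and tests were chosen with earlier results of these data known.

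Counts were summed by size group and replicate (165 oocytes, 16 sums, 2 sums a group), filtered with filterByExpr (minimum count 10, total 15) and tested in edgeR (version 4.0.16) with TMM scaling and a model of size group plus replicate block, and genes were called at an adjusted p of 0.05. The replicate number is a shared library batch, and sums of 1 replicate deviated together (28 pairs, r of 0.576 to 0.836). P-values measure the spread between these sums. The SE is the log2 fold change over the square root of F, and intervals are 95%. Among 925 pairs of oocytes of a group and replicate none differed by sampling noise alone (lowest chi-square per degree of freedom 2.07). Levels per oocyte are CPM over TMM library sizes, as log2(CPM + 1). Ratio trends used permutations.

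The 5 members were described in full, other ATP synthase genes were named where called, and 3 genes most like each member were named by r. Alternatives were no replicate block, RLE, DESeq2 (version 1.42.0), no filter, single oocytes, 250000 counts per oocyte, all 179 oocytes, each sum left out and, chosen after seeing the data, the 100–109 μm sum of replicate 1 without its deepest oocyte. The RefSeq table used here is of another assembly than the files, so coordinates, lengths and sequences were not used here. R 4.3.3, Python 3.11.15, scipy 1.17.1 and matplotlib 3.10.9 were used.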

Additional observations from a re-analysis of the deposited data

Results flagged for a closer look

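Reads of all 5 genes were found in the 14 oocytes that the study left out after quality control and that enter the comparisons above only in the alternative with all 179 oocytes. Their totals ranged from 10 to 4933709 counts. Over these oocytes the summed count was 9399 for ATP5MC1 (in 11 of 14 oocytes), 2292 for ATP5MC2 (10 of 14), 3250 for ATP5MC3 (11 of 14), 4369 for ATP5ME (11 of 14) and 5554 for ATP5MF (9 of 14). One oocyte gave 1920 of the 2292 counts of ATP5MC2 and 1 gave 4036 of the 9399 counts of ATP5MC1. These sums exceed the 3 counts that a count of 0 allows. Gaps of single samples within a group were not examined, because every size group has more than 10 oocytes and 2 sums.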

How the results depend on the processing

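Of 1317 values of the 5 members under the alternatives, 1207 kept their direction and their side of the threshold, 17 lost and 26 gained a call, 67 that were not called changed sign, and 0 called ones did. Members called over the 8 size groups numbered 1, but 0 without the replicate block, 2 with RLE, no filter, 250000 counts per oocyte, DESeq2 or without the deepest oocyte of the 100–109 μm sum of replicate 1, 3 with single oocytes as units, and 0 to 3 with each sum left out. Between < 60 and > 120 μm the 2 calls became 0 without the replicate block and 1 to 2 with each sum left out, and with all 179 oocytes the 2 were ATP5MC2 and ATP5ME in place of ATP5MC2 and ATP5MC1. Here edgeR called 2700 of all genes with the block, 81 without it, 4451 with single oocytes and 1093 to 2801 with each sum left out. From 70–109 to ≥ 110 μm the 2 became 0 without the replicate block, 1 with all 179 oocytes and 0 to 2 with each sum left out. From < 70 to 70–109 μm the 0 became 2 with all 179 oocytes or with single oocytes, 1 with DESeq2 and 0 to 1 with each sum left out. With single oocytes 1 was called from < 70 to 70–79 μm (0 to 1 with each sum left out) and 1 from 70–79 to 80–99 μm, and the counts of the other 5 successive steps remained 0. The r of ATP5MC1 to ATP5MC3 with diameter was 0.648 in replicate 1 alone (exact permutation p = 0.0825). With each sum left out the r was 0.924 to 0.951, 0.756 to 0.878 and -0.955 to -0.867 for ATP5MC1 to ATP5MC2, ATP5MC1 to ATP5MC3 and ATP5MC2 to ATP5MC3, and without the replicate block 0.768, 0.789 and -0.551. ATP5MC2 had at least 1 count in 160 oocytes after thinning, in place of all of them. The causes were not tested. Each group has 2 sums, 1 per replicate, and leaving out a sum leaves a group with 1, whose spread is taken from the other groups. The lowest oocytes had 1 count of ATP5MC2 and 0 of ATP5ME, and the part of depth in these low counts was not tested.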
